A study of Sorghum bicolor with 12 samples.

Results

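The transcripts described here are named by the study as 5 enzymes or enzyme subunits of the Calvin cycle and its small regulator CP12. They were measured in leaves of Sorghum bicolor with and without drought. They are 6 of the 27989 transcripts in the files, from 6 different genes. They were chosen by name from the entries that the study lists under the Calvin cycle, and those entries were listed because drought-stressed and well-watered plants of one genotype, IS20351, differed in them. The values of IS20351 under drought therefore selected them and are given below as a description, without a test. The drought comparison in the other genotype, IS22330, is the one that carries a test, and even there the choice was made with the levels of all 4 groups in view.

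The Calvin cycle fixes carbon dioxide with the enzyme RuBisCO, reduces the product to sugar phosphates and regenerates the acceptor. In sorghum, a C4 grass, it runs mainly in the bundle sheath of the leaf, which receives carbon dioxide concentrated by the mesophyll. CP12 is a small chloroplast protein that, in the dark, ties glyceraldehyde-3-phosphate dehydrogenase and phosphoribulokinase into an inactive complex, and the RuBisCO activator, an ATP-using enzyme, frees the catalytic sites of RuBisCO from bound sugar phosphates.

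Leaf RNA was sequenced in 12 libraries, 3 for each of 4 groups: IS22330 under drought stress (DS), IS22330 well watered (WW), IS20351 DS and IS20351 WW. IS22330 is the genotype that the study calls tolerant and IS20351 the one it calls sensitive. Both were grown with a single plant per pot, and DS plants were held for 9 days at a fraction of transpirable soil water of 0.2, against 0.7 in WW plants, before harvest at 42 days. The labels name the tissue as leaf and the protocol as leaf meristem; this was not checked against markers of dividing cells, because the annotation at hand does not name the transcripts. The labels call the replicates biological without saying whether a library came from 1 plant or from several.

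The libraries held 26398759 to 28680141 reads on transcripts, and 22839 to 24232 transcripts had reads. Within a group the libraries are called a, b and c in the order of their totals, since their replicate numbers are not known. Library c of IS22330 DS stood apart from its group: its 19 listed light-reaction transcripts summed to 10803 RPKM (reads scaled to transcript length and library total), against 1814 and 2017 RPKM in libraries a and b, and 5036 to 8511 RPKM in IS22330 WW. Ratios, calls and orders of means that rest on it are given with and without it, and since it was singled out by its values, those without it are not independent evidence. In bulk leaf RNA, fewer cells of a type and less RNA per cell cannot be told apart.

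Across the 6 transcripts, IS20351 showed 3 that were higher and 3 that were lower in DS plants, with no overlap between the 3 DS and 3 WW libraries in any of them. The higher ones were CP12-2 (Sb01g037510.1), transketolase (Sb06g004280.1) and the RuBisCO activator (Sb05g027880.1). Those at lower levels were the RuBisCO small chain (Sb05g003480.1), fructose-bisphosphate aldolase (Sb05g004590.1) and glyceraldehyde-3-phosphate dehydrogenase (Sb06g018880.6). Of all 19022 transcripts tested, 36.7% had groups that did not overlap in that comparison, 21.5% higher and 15.2% lower in DS, but the members were selected on it, so their count is no result. In IS22330 the DS and WW libraries overlapped for all 6, where 14.1% of the transcripts tested did not overlap. Without DS library c they were separated for all 6, in the directions of IS20351, beside a background of 45.9% (26.1% higher and 19.8% lower). Library c was singled out by its values and the members were chosen with all 4 groups in view, so this count is no result either. The plot of levels by library shows these groups for each transcript.

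**Figure D1:**
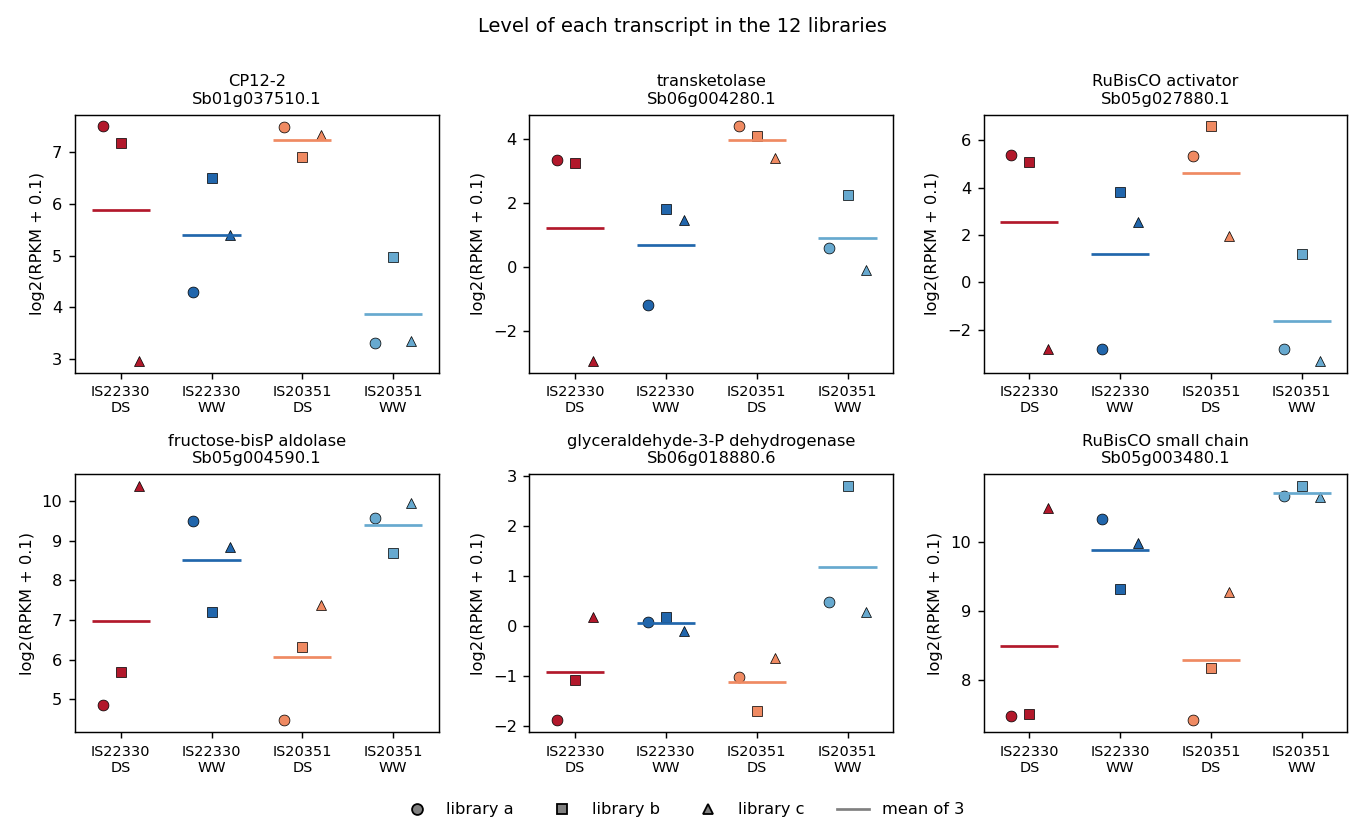
Level of the 6 transcripts as log2(RPKM + 0.1), 1 panel each, with the 3 libraries of each group as points and their mean on that scale as a line. In IS20351 the DS points lie above all WW points for CP12-2, transketolase and the RuBisCO activator and below them for the other 3, while in IS22330 library c lies away from libraries a and b of DS.

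By edgeR's quasi-likelihood test with Benjamini-Hochberg adjustment, none of the 6 passed an adjusted p of 0.05 for DS against WW in IS22330. None of them had an unadjusted p under 0.05, and neither DESeq2 nor limma called any. Nor did any of the 19022 transcripts pass in edgeR (0%), with 2094 (11%) at an unadjusted p under 0.05, 197 called by DESeq2 and 1 by limma. Without DS library c, 1 of the 6, the small chain, passed as lower, where 4.21% of 18918 transcripts passed, 1.18% as higher and 3.02% as lower.

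CP12-2, a transcript of 665 bases, had 181, 146 and 7.71 RPKM in the 3 DS libraries of IS22330, against 19.5, 90.4 and 42.1 RPKM in WW. Libraries a and b of DS were above every WW library, and library c was below every one of them. The fitted log2 ratio of DS to WW was 1.07 (SE 0.86), with an adjusted p of 0.6402 in edgeR. Without library c it was 1.61 (SE 0.63), with an adjusted p of 0.1564. In IS20351, CP12-2 had 179, 121 and 162 RPKM in DS plants, against 9.82, 31.3 and 10.1 RPKM in WW plants, and the fitted ratio was 3.09 on the log2 scale (SE 0.92). The lowest DS library of IS20351 thus held more than the highest WW library of either genotype. By group mean, CP12-2 was highest in IS20351 DS (154 ± 30.1 RPKM, SD, n = 3), then in IS22330 DS (112 ± 91.7), IS22330 WW (50.7 ± 36.2) and IS20351 WW (17.1 ± 12.3), and each neighbouring pair in that order overlapped. Without library c the IS22330 DS mean was 164 RPKM, and the first 2 places changed over.

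The RuBisCO activator transcript, of 1762 bases, had the largest SE of the fitted log2 drought ratio among the 6 in both genotypes. In IS22330 it had 41.5, 33.9 and 0.0413 RPKM in the DS libraries, against 0.0415, 13.9 and 5.76 RPKM in the WW libraries. The 2 lowest of these values, DS library c and WW library a, were 2 reads each. Its log2 ratio in IS22330 was 1.86 (SE 1.91, adjusted p 0.7206 in edgeR), and 2.44 (SE 1.71, adjusted p 0.4114) without DS library c. In IS20351 it had 40.1, 96.9 and 3.78 RPKM in DS plants, against 0.0412, 2.18 and 0 RPKM in WW plants. Nearly all of its WW signal came from the 109 reads of library b, and the 0 of library c allows up to 0.0594 RPKM, the level of 3 reads by counting error alone. The log2 ratio of IS20351 was 5.81 (SE 2.30), and 10.8 when WW library b was left out, where the WW group rests on 2 reads. The order of group means was IS20351 DS, IS22330 DS, IS22330 WW and IS20351 WW, and again each neighbouring pair overlapped. Without library c the IS22330 DS mean was 37.7 RPKM and kept its place.

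The RuBisCO small chain, the nuclear-encoded subunit of the carboxylating enzyme, was the most abundant of the 6. In IS22330 its transcript of 1179 bases had 179, 182 and 1450 RPKM in DS plants, against 1293, 642 and 1016 RPKM in WW plants. DS libraries a and b were below all WW libraries and DS library c was above them. The fitted log2 ratio of -0.52 (SE 0.81) had an adjusted p of 0.8258 in edgeR, and the ratio was -0.04 without DS library a, -0.06 without DS library b and -1.38 in limma. Without DS library c it was -2.51 (SE 0.55, adjusted p 0.03703), lower in 2 of 2 DS libraries. In IS20351 it had 171, 290 and 623 RPKM in DS plants, against 1632, 1804 and 1614 RPKM in WW plants, and the fitted ratio was -2.27 on the log2 scale (SE 0.85). The WW libraries of IS20351 were close to one another, whereas the DS libraries were spread more widely. The IS20351 WW libraries also lay above every IS22330 WW library. In the order of means IS22330 WW, IS22330 DS and IS20351 DS followed, and IS22330 DS overlapped each of its neighbours. The IS22330 WW libraries, at 642 RPKM or more, lay above the IS20351 DS libraries, at 623 RPKM or less. Without library c the IS22330 DS mean was 181 RPKM, below the 361 RPKM of IS20351 DS, so that the last 2 places changed over.

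**Figure D2:**
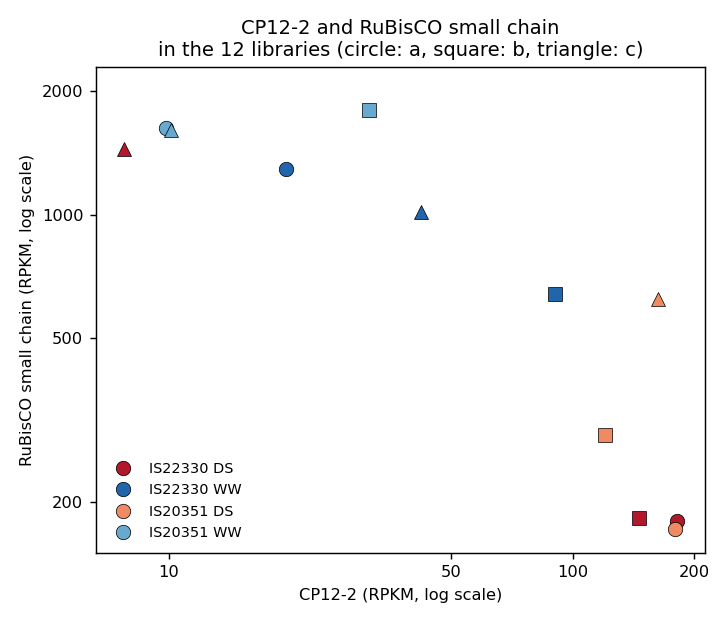
CP12-2 (x axis) against the RuBisCO small chain (y axis), RPKM on log axes, with 1 point for each of the 12 libraries, marked by shape as library a, b or c of its group. The DS libraries lie at high CP12-2 and low small chain except library c of IS22330, which lies near the WW libraries at 7.71 and 1450 RPKM.

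The distance between CP12-2 and the small chain was smaller in DS libraries, except in library c of IS22330. In IS20351 this follows from the choice of a transcript higher and a transcript lower in DS, so it is no result there. The small chain had 0.988, 1.25 and 188 times the RPKM of CP12-2 in DS libraries a, b and c of IS22330, against 66.3, 7.10 and 24.1 times in its WW libraries. In IS20351 the ratio was 0.957, 2.40 and 3.83 in DS plants, against 166, 57.6 and 159 in WW plants. RPKM is per length, so the 2 transcripts were near parity in library a of both DS groups and in library b of IS22330 DS. The highest ratio of all 12 libraries was that of DS library c of IS22330.

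**Figure D3:**
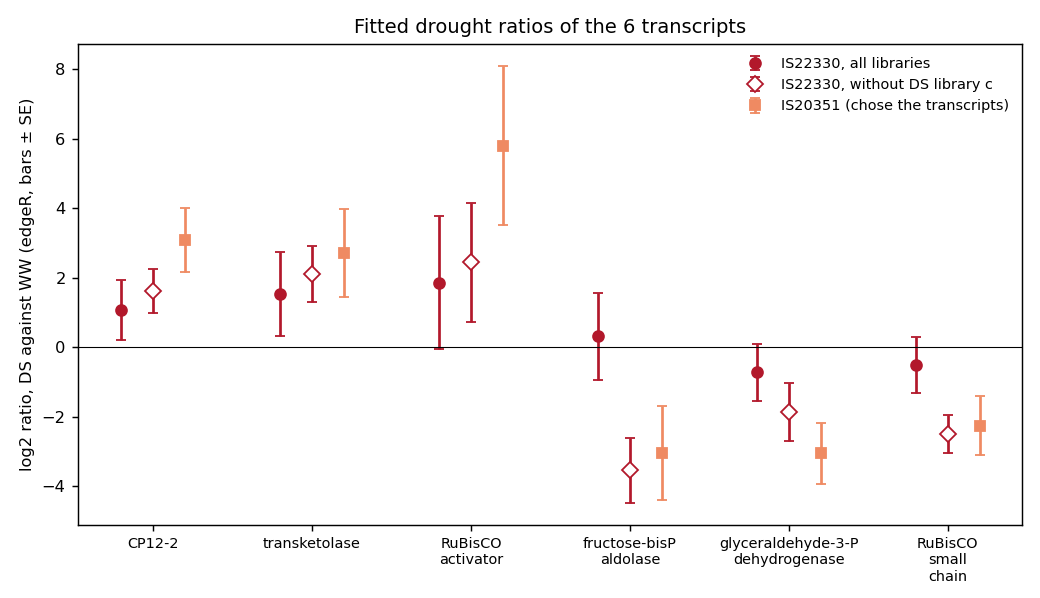
Fitted log2 ratio of DS to WW for each of the 6 transcripts in IS22330, in IS22330 without DS library c, and in IS20351, with bars of 1 SE. With all libraries the IS22330 points lie between -0.73 and 1.86, and aldolase is at 0.31 with all libraries and at -3.55 without library c.

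An enzyme of the name glyceraldehyde-3-phosphate dehydrogenase carries out the reducing step of the cycle. Whether Sb06g018880 codes for that form was not checked, since the name comes from the study's list. The transcript listed, Sb06g018880.6, had only 0.172, 0.378 and 1.03 RPKM in DS libraries of IS22330 (10, 22 and 60 reads), against 0.965, 1.03 and 0.833 RPKM in WW. The log2 ratio of -0.73 (SE 0.82) had an adjusted p of 0.7435 in edgeR, and the ratio was -1.87 (SE 0.85, adjusted p 0.2109) without DS library c. Sb06g018880.6 passed the filter, an RPKM of 1 in 3 or more libraries, only through the IS20351 WW libraries. With only the 6 IS22330 libraries it was not tested, nor at an RPKM of at least 5. In IS20351 it had 0.393, 0.208 and 0.546 RPKM in DS plants, against 1.30, 6.85 and 1.12 RPKM in WW plants. There the log2 ratio was -3.06 (SE 0.87), and -1.73 without WW library b. The IS20351 WW libraries were above all others, and the means of IS22330 WW, IS22330 DS and IS20351 DS followed, neighbours overlapping. The mean of IS22330 DS was 0.526 RPKM with library c and 0.275 RPKM without it, against 0.382 RPKM in IS20351 DS, which reverses the last 2 places.

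This transcript is a minor one of its gene. It took 0.649 to 2.78% of the reads assigned to the 6 transcripts of Sb06g018880, whereas Sb06g018880.3 took 36.7 to 80.9%. Transcripts of 1 gene can share sequence and the counts are of unique matches, so how the reads are divided among them is uncertain. Summed over the gene, RPKM was 27.6, 19.1 and 81.7 in DS plants of IS22330, against 110, 53.8 and 93.5 in WW plants. In IS20351 the sum was 29.8, 18.0 and 44.2 in DS plants, against 114, 268 and 84.0 in WW plants. The gene was therefore lower in every DS library than in every WW library of IS20351, and in IS22330 this held for libraries a and b but not for library c. WW library b of IS20351, with the highest sum, also divided its reads differently: Sb06g018880.3 took 80.9% there and at most 57.9% elsewhere, and Sb06g018880.5 took 1.93% there and at least 19.7% elsewhere.

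**Figure D4:**
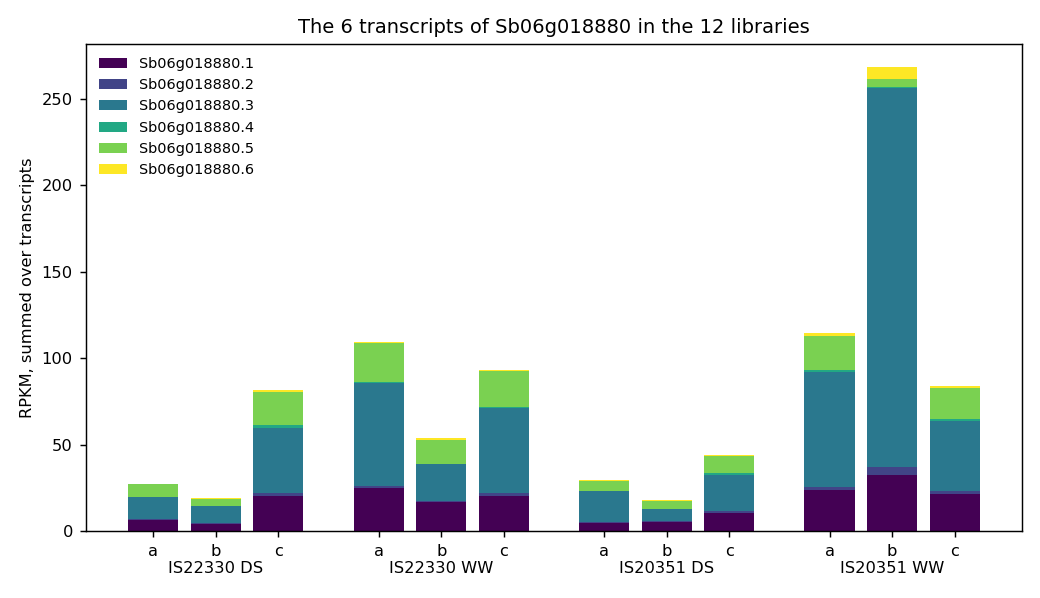
RPKM of the 6 transcripts of the glyceraldehyde-3-phosphate dehydrogenase gene Sb06g018880, stacked for each of the 12 libraries. The stacks of the IS20351 DS libraries (18.0 to 44.2 RPKM) are shorter than those of the IS20351 WW libraries (84.0 to 268 RPKM), and Sb06g018880.6 is a thin part of each.

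Fructose-bisphosphate aldolase joins triose phosphates in the regeneration of the acceptor, and enzymes of that name also act in glycolysis. In IS22330 its transcript of 1824 bases had 29.0, 51.4 and 1332 RPKM in DS plants, against 727, 148 and 461 RPKM in WW plants. Library c of DS held the highest value of the 12 libraries, and libraries a and b were below every WW library of either genotype. The log2 ratio of 0.31 (SE 1.25) had an adjusted p of 0.9477 in edgeR, and the ratio turned to -3.55 (SE 0.94, adjusted p 0.06119) without DS library c. In IS20351 it had 22.0, 80.1 and 167 RPKM in DS plants, against 763, 410 and 987 RPKM in WW plants, and the fitted ratio was -3.06 on the log2 scale (SE 1.35). Mean levels were ordered IS20351 WW, IS22330 DS, IS22330 WW and IS20351 DS, and each neighbouring pair overlapped. The mean of IS22330 DS was 471 RPKM with library c and 40.2 RPKM without it, against 89.7 RPKM in IS20351 DS, so that without it IS22330 DS was last.

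Transketolase moves carbon units between sugar phosphates in the same phase of the cycle, and enzymes of that name also act in the pentose phosphate pathway. In IS22330 its transcript of 2427 bases had 9.92, 9.32 and 0.0300 RPKM in DS plants, the last of these from 2 reads, against 0.331, 3.40 and 2.62 RPKM in WW plants. The log2 ratio of 1.53 (SE 1.22) had an adjusted p of 0.6362 in edgeR, and the ratio was 2.11 (SE 0.82, adjusted p 0.1567) without DS library c. In IS20351 it had 20.8, 17.0 and 10.4 RPKM in DS plants, against 1.41, 4.56 and 0.833 RPKM in WW plants, and the fitted ratio was 2.71 on the log2 scale (SE 1.26). All DS libraries of IS20351 were above all DS libraries of IS22330. The groups IS22330 DS, IS20351 WW and IS22330 WW followed in the order of means, and neighbours among them overlapped. Without library c the IS22330 DS mean was 9.62 RPKM and kept its place.

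**Figure D5:**
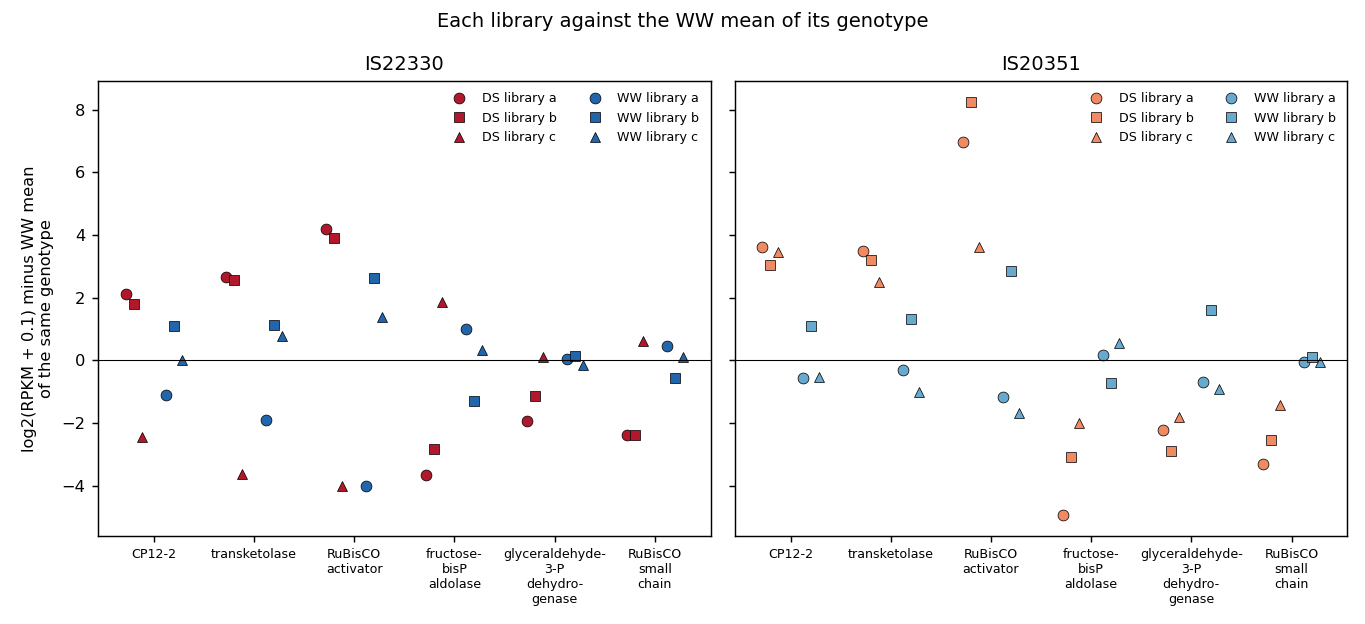
Each library's log2(RPKM + 0.1) minus the mean of the WW libraries of its genotype, for the 6 transcripts, with DS libraries to the left of WW libraries. In IS22330, DS library c (triangles) lies on the opposite side from libraries a and b for all 6.

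Among the values that chose the members, the transcripts higher in IS20351 DS spanned log2 ratios of 2.71 to 5.81, and those lower spanned -3.06 to -2.27. The fit shares a spread per transcript over all 12 libraries, so IS22330 DS library c also entered the SEs of these IS20351 ratios. Without it each SE was smaller: 0.62 for CP12-2, 0.78 for transketolase, 1.91 for the activator, 0.77 for aldolase, 0.74 for Sb06g018880.6 and 0.47 for the small chain. The study required that the log2 ratio reach 2 in size. In the fit here the small chain, at -2.27, was the member nearest to that limit, and Sb06g018880.1, at -1.99, lay just outside it. The members did not divide cleanly by abundance. Among 27985 transcripts ranked by mean RPKM, the small chain was 294th in IS20351 DS and 42nd in IS20351 WW, and aldolase was 1581st and 139th, but Sb06g018880.6, also lower in DS, was 19832nd and 13564th. Of the transcripts that were higher in DS, CP12-2 was 870th in IS20351 DS and 6381st in IS20351 WW, the activator 3023rd and 18021st, and transketolase 7091st and 14659th.

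The genotypes were compared within each water treatment, as values without a test, because both comparisons use the IS20351 libraries. In DS plants only transketolase was separated, with IS22330 below IS20351 (log2 ratio -1.33, SE 1.20, and -0.75 without IS22330 DS library c). Of all transcripts tested, 19.6% were separated there in either direction and 10.6% were lower in IS22330. The DS log2 ratio of IS22330 to IS20351 was 2.59 for aldolase and 0.90 for the small chain, and turned to -1.27 and -1.08 without IS22330 DS library c. In WW plants, where 22.7% of the transcripts tested were separated in either direction and 9.66% were lower in IS22330, 2 members were separated. The small chain and Sb06g018880.6 were lower in IS22330 without overlap, with log2 ratios of -0.85 and -1.76. The second of these was -0.45 without IS20351 WW library b. CP12-2 had a WW log2 ratio of 1.53 with overlapping groups, which was 0.76 without IS22330 WW library b and 2.26 without IS20351 WW library b. The activator had 3.11, also with overlap, which was 1.88 without IS22330 WW library b and 8.10 without IS20351 WW library b. The drought ratio of IS22330 minus that of IS20351, on the log2 scale, was 3.37 for aldolase, and -0.49 without IS22330 DS library c. For the small chain it was 1.75, and -0.24 without that library. The sign stayed for the activator (-3.95, and -3.37 without it), CP12-2 (-2.02 and -1.48), transketolase (-1.18 and -0.60) and Sb06g018880.6 (2.33 and 1.19). With all libraries, 0 of the 19022 transcripts tested passed an adjusted p of 0.05 for this difference in edgeR.

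The rest of the entries that the study lists under the Calvin cycle, with the further transcripts of the same genes, made 8 more transcripts: Sb06g018880.1 to Sb06g018880.5, the pair Sb01g039980.1 and Sb01g039980.2 of D-fructose-1,6-bisphosphate 1-phosphohydrolase, which removes a phosphate during regeneration, and Sb01g021920.1, which the list names a chitinase. The list's entries were chosen on the same IS20351 libraries, and the others are further transcripts of listed genes. Their IS20351 counts are therefore no result. Transcripts of the same gene are also not separate observations, so counts among the 8 are not counts of genes. In IS20351 all 8 had negative log2 ratios (median -1.89, beside 0.03 over all transcripts tested), and 6 were lower in DS without overlap, where 15.2% of all transcripts tested were. In IS22330 none passed an adjusted p of 0.05 in edgeR, DESeq2 or limma, and none had an unadjusted p under 0.05 in edgeR; 6 log2 ratios were negative and 2 positive (median -0.60, beside 0.01 over all). Without DS library c, 7 were tested and 2 passed as lower, beside 3.02% of all transcripts tested. Sb01g039980.1 had 1.99, 1.17 and 9.74 RPKM in IS22330 DS, against 6.46, 4.95 and 8.48 RPKM in WW, and a log2 ratio without library c of -2.11 (adjusted p 0.03266 in edgeR). Sb06g018880.1 had 6.55, 4.47 and 20.5 RPKM in DS, against 25.4, 16.9 and 20.7 RPKM in WW, and a ratio of -1.98 (adjusted p 0.03877). Thus 3 of the 9 listed Calvin cycle entries, all of them members, were higher in IS20351 DS.

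The 19 light-reaction transcripts of the same list code for proteins of light harvesting and electron transport. They are set beside the members because the Calvin cycle as a whole uses the products of those reactions. They summed to 2047, 1844 and 2154 RPKM in DS plants of IS20351, against 12887, 9874 and 12105 RPKM in WW plants. In IS22330, DS library c held 10803 RPKM for this sum and was also where the small chain and aldolase were above all WW libraries of IS22330. Of the 18 tested, 14 were lower and 4 higher in IS20351 DS without overlap, beside 15.2% and 21.5% of all transcripts tested. In IS22330 none passed in edgeR, with 2 of 18 at an unadjusted p under 0.05, beside 11% of all, and without DS library c 11 passed as lower and 2 as higher, beside 3.02% and 1.18% of all. The light-reaction list was likewise chosen on these samples, so its IS20351 counts are no result. Library c was singled out by the sum of this same list, so the counts without library c are no result either. The part of the light reactions in the members' levels was not tested.

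Likeness of pattern was measured as Pearson's r of log2(RPKM + 0.1) over the 12 libraries, which share groups and the library that stands apart, and is given as a description. For CP12-2 the most alike were Sb02g011210.1 (r 0.986), Sb03g033320.1 (0.986) and Sb01g003230.1 (0.984), none of them among the entries of the list. The small chain was most like Sb10g006380.1 (0.986), aldolase most like Sb04g001710.1 (0.984), and transketolase most like Sb03g029370.1 (0.981). The activator was most like Sb01g036610.1 (0.974) and Sb06g018880.6 most like Sb07g023950.1 (0.954). Among the members, r over the 12 libraries was highest for aldolase and the small chain (0.960). That order depended on the groups and on library c: for deviations from the group means r was 0.968 for CP12-2 and transketolase and 0.958 for aldolase and the small chain. In the 11 libraries without c these deviations gave 0.941 for transketolase and the activator and 0.863 for aldolase and the small chain. Likeness to other transcripts was measured with all 12 libraries only.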

How the data were processed

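Per the labels, poly-A RNA was sequenced as paired reads on an Illumina Genome Analyzer IIx. The authors aligned reads to the sorghum genome of Ensembl Plants release 20 with SOAP2, allowing up to 5 mismatches, and counted unique matches per transcript. The expected counts deposited by the authors are means of unique reads over a group's 3 libraries. The authors also deposited RPKM values averaged over the same libraries, in which a library without reads counted as 0.001.

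From both means the whole reads of each library were solved for 27985 of 27989 transcripts, a step also tested on simulated data. The other 4, with 3.815 to 5.782% of a library's reads together, had several solutions and were not used: Sb03g020186.1, Sb07g005660.1, Sb01g013000.1 and Sb10g021330.1. Totals were 26398759 to 28680141 reads, and intervals for low reads cover counting error only. Genes were fitted in edgeR 4.0.16 (R 4.3.3) on all 12 libraries by group, with TMM scaling (factors 0.86 to 1.13) and a prior count of 0.125, over 19022 transcripts that reached an RPKM of 1 in 3 or more libraries (common biological coefficient of variation 0.464). The SE is the log2 ratio divided by the square root of F. Calls were counted at an adjusted p of 0.05 and at the thresholds in the study's methods (0.001 and a log2 ratio of 2). These were applied here to Benjamini-Hochberg adjusted p, whereas the study names the Benjamini-Yekutieli method and an algorithm of its own. The counts here are therefore not those of the study's rule. Exact permutation of 3 against 3 libraries cannot go below 0.1. Since nothing ties libraries to separate plants, p-values measure the spread between these libraries.

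The text names the 6 members, other transcripts of their genes, the further Calvin cycle entries of the study's list, and the 3 transcripts most like each member, the first of them for most. Members and lists were chosen with earlier results of these data known. Lists and cell markers that needed enzyme descriptions were not used, since the annotation at hand gave none for these IDs; names come from the study's list. Alternatives were other filters, scalings, prior counts and pseudocounts, DESeq2 1.42.0, limma 3.58.1, 6 libraries alone and each library left out. Figures were drawn with matplotlib 3.10.9.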

Additional observations from a re-analysis of the deposited data

How the results depend on the processing

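For IS20351, DS against WW, 709 transcripts passed an adjusted p of 0.05. The count was 434 with no filter, 3103 in DESeq2 and 1951 with only the 6 libraries compared. Leaving out 1 library gave 0 to 2919: 0 when any 1 of the IS20351 libraries, or WW library a or c of IS22330, was left out, 376 without IS22330 WW library b, 469 without IS22330 DS library b and 2919 without IS22330 DS library c. At the study's thresholds, applied here to Benjamini-Hochberg adjusted p, the count was 0 in edgeR (5092 transcripts had an unadjusted p under 0.05) and 249 in DESeq2. It was 0 to 7 with 1 library left out, 7 without IS22330 DS library c, and 709 with an adjusted p of 0.05 and no minimum ratio. For IS22330 the count of 0 became 1 at an RPKM of at least 5, 197 in DESeq2, 1 in limma with a pseudocount of 0.1, and 0 to 796 with 1 library left out. Members called in IS22330 then ranged over 0 to 1 and the 8 further transcripts over 0 to 2, both highest without DS library c. The aldolase ratio of 0.31 in IS22330 was -1.54 in limma with a pseudocount of 0.1 (adjusted p 0.6801), -1.53 with a pseudocount of 1 (adjusted p 0.6508), -0.07 without IS22330 WW library b, and -3.55 to 0.89 over the libraries left out. Other IS22330 ratios that moved by over 1.5 times in limma with a pseudocount of 0.1 were CP12-2 (1.07, to 0.49), transketolase (1.53, to 0.53) and the small chain (-0.52, to -1.38). With 1 library left out the IS22330 ratios ran over 0.49 to 1.87 for CP12-2, 1.02 to 2.12 for transketolase, 1.23 to 3.12 for the activator, -1.87 to -0.27 for Sb06g018880.6 and -2.51 to -0.04 for the small chain. The cause was not tested. No paired analysis was possible because the solved libraries could not be matched to the replicate numbers of the labels. Depth limits Sb06g018880.6, which had 10 to 76 reads in every library but IS20351 WW library b (412 reads).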
